A study of Homo sapiens with 6 samples.

Results

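NR4A1, NR4A2 and NR4A3 (also known as Nur77, Nurr1 and NOR-1) form the NR4A group of orphan nuclear receptors, and their transcripts are described here in RNA-seq of EndoC-βH1 cells. The 3 genes were taken by their symbols from the 60671 gene identifiers in each count file, and all 3 were among the 17649 genes with enough counts to be tested. They were picked because their levels differed between the 2 treatments in these same libraries, so their differences between treatments are given as a description, without a test.

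Nuclear receptors are transcription factors, most of which switch their target genes on or off when a small lipid-soluble ligand binds. In the NR4A receptors the ligand pocket is filled by bulky side chains, and their activity is set mainly by how much receptor a cell makes. The genes are immediate early genes: depolarization, calcium, cAMP and growth factors raise their transcription within minutes through CREB, MEF2 and SRF bound at their promoters. The proteins bind as monomers to the NBRE, the sequence AAAGGTCA, and NR4A1 and NR4A2 also bind DNA together with a retinoid X receptor (RXR). In β cells NR4A1 and NR4A3 have been placed downstream of NKX6-1 in the control of proliferation, and glucose and incretin hormones are known to induce the family.

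The cells were EndoC-βH1, a human β cell line made from fetal pancreas and immortalized with a viral oncoprotein and telomerase, with a wild-type genotype in both groups. In 3 samples they received the vehicle DMSO and in the other 3 samples 1 µM AZD7762, a competitive inhibitor of the checkpoint kinases CHEK1 and CHEK2 that is known to inhibit other kinases too. Vehicle or inhibitor was present through 1 h of starvation in 0.5 mM glucose and 1 h of stimulation, for which the labels name 0.5 mM or 20 mM glucose without saying which library received which. The comparison asks how an inhibitor found for its effect on insulin secretion changes gene expression in β cells. A cell line is a single genetic background, and nothing in the labels says that the 3 samples of a group came from separate cultures, so the p-values given for other genes measure the spread between these samples, which may be technical.

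The promoters of NR4A3 and NR4A1 in the RefSeq table used are shown first, and that of NR4A2 was not analysed here. They are shown because the CRE core, TGACG, to which CREB-type factors bind, is spread very unequally between the starts shown. Any other start of these genes was not examined. Each line gives 109 bases of the plus strand, which is the coding strand of both genes, from 119 to 11 bases before an annotated start in GRCh38.p14, with TGACG or its reverse complement CGTCA in capitals.
NR4A3, chr9:99821766-99821874: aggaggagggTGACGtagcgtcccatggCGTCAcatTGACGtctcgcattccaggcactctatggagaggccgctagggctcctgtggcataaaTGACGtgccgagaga
NR4A1, upstream start, chr12:52022713-52022821: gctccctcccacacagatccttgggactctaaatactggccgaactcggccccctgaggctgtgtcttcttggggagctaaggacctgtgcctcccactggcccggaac
NR4A1, downstream start, chr12:52037596-52037704: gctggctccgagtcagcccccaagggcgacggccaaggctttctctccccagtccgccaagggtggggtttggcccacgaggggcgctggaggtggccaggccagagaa
The NR4A3 window, which runs from 250 bases before to 50 bases after the start, held 4 CRE cores, at 109, 91, 83 and 25 bases before the start. Of 35116 RefSeq windows of the same length, 24.6% held at least 1 core on either strand and 0.313% held 4 or more. Neither NR4A1 window held a CRE core. None of the 3 windows held the full 8-base CRE TGACGTCA, which 1.85% of windows held, or the NBRE AAAGGTCA, held by 1.22%. The CArG box bound by SRF (1.29% of windows), the MEF2 box (2.99%), the AP-1 site TGANTCA (7.71%) and the TATA sequence TATAAA (11.5%) were also absent from all 3. The GC box GGGCGG, present in 45.0% of windows, occurred once in the NR4A3 window and once in the downstream NR4A1 window. A match describes letters and not a bound site, and a missing match covers only these windows.

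The libraries held 20486391 to 29402440 counts. A gene whose count is 0 could therefore lie at up to 0.102 to 0.144 CPM (counts scaled to a common library size), the level of 3 counts, and such limits cover counting error only. The first DMSO replicate had the lowest mean correlation with the others, 0.988, so the NR4A values are also given without it. The third AZD7762 replicate was close to it at 0.990, and the remaining libraries were at 0.993 to 0.994. Mitochondrial genes took 1.57%, 2.13% and 2.12% of the counts in the DMSO libraries and 2.26%, 2.28% and 2.63% in the AZD7762 libraries, so this share was higher in every treated library, and its part in the NR4A values was not tested. All 11 β cell markers were detected well enough to be tested and summed to 3835 to 4489 CPM in DMSO and 3971 to 4296 CPM in AZD7762. Of them 1 was called, the insulin gene activator MAFA, at a log2 fold change of 1.24 (edgeR quasi-likelihood adjusted p = 0.000133). Over all genes tested 0.708% were called (edgeR adjusted p under 0.05). Between the groups 5 of the 11 β cell markers did not overlap, beside 15.0% of all genes. MAFA, PDX1 and NKX6-1 lay above DMSO, and NEUROD1 and SLC30A8 below. NEUROD1 went from 1384 ± 36.7 to 1179 ± 49.2 CPM and SLC30A8 from 72.0 ± 3.48 to 65.8 ± 1.31 CPM (SD, n = 3 each). Their edgeR adjusted p were 0.182 and 0.518. At an unadjusted edgeR p under 0.05 there were 3 of the 11, beside 9.68% of all genes. The T cell marker CD3E, the acinar markers PRSS1 and CELA3A and the endothelial marker CDH5 were at 0 in all 6 libraries, and the leukocyte and endothelial lists summed to at most 0.271 and 0.0339 CPM. Markers of other islet endocrine cells, nearly all of it somatostatin (SST), summed to 205 to 230 CPM in DMSO and 245 to 269 CPM in AZD7762, those of exocrine and duct cells to 45.4 to 51.9 and 50.3 to 56.4 CPM, and those of fibroblasts and stellate cells to 11.8 to 17.6 and 13.1 to 15.6 CPM. The endocrine list did not overlap between the groups, and within the exocrine list the acinar enzyme CPA1 did not either, at 21.0 to 22.6 CPM in DMSO and 24.7 to 27.5 CPM in AZD7762 (edgeR adjusted p = 0.308). SST missed the threshold too (edgeR adjusted p = 0.160). Every AZD7762 library lay above every DMSO library for 6.79% of all genes tested. The part of these markers in the NR4A values was not tested.

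NR4A1 (ENSG00000123358, chr12:52416616-52453291 on the plus strand of GRCh37) encodes the receptor first found as a growth-factor-inducible gene. Its reads numbered 208, 158 and 129 in DMSO replicates 1, 2 and 3, and 1574, 1508 and 1739 in AZD7762 replicates 1, 2 and 3. After scaling for library size these were 7.04, 5.81 and 6.18 CPM with DMSO and 62.6, 71.7 and 81.6 CPM with AZD7762. All 3 treated libraries stood far above all 3 controls: the lowest treated value was 8.89 times the highest control value, and the highest treated value 14.0 times the lowest control value. The group means were 6.35 ± 0.631 and 71.9 ± 9.49 CPM (mean ± SD, n = 3 each), a ratio of 11.3, and the fitted log2 fold change was 3.50 ± 0.112 (SE). Of the NR4A1 exon bases, 10.3% overlap NR4A1AS on the opposite strand. NR4A1AS itself had only 15 reads over the 6 libraries, 0, 1 and 0 with DMSO and 7, 5 and 2 with AZD7762. No source says whether the counting used strand, so those reads cannot be assigned with certainty. In bulk RNA, more cells making a transcript and more transcript per cell cannot be told apart.

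NR4A2 (ENSG00000153234, chr2:157180949-157198860 on the minus strand of GRCh37) is the member best known for its role in dopamine neurons. It had 209, 238 and 186 reads in the DMSO libraries and 2584, 3194 and 2595 in the AZD7762 libraries, which gave 7.08, 8.75 and 8.91 CPM against 103, 152 and 122 CPM. The groups were again widely separated, by 11.5 times at the nearest values and 21.5 times at the farthest. Its means were 8.25 ± 1.02 and 125 ± 24.7 CPM (SD, n = 3 each), a ratio of 15.2, with a fitted log2 fold change of 3.93 ± 0.142 (SE). No annotated exon of another gene overlaps its exons.

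NR4A3 (ENSG00000119508, chr9:102584137-102629173 on the plus strand of GRCh37) is the third member, and its values were lower and more scattered. The DMSO libraries held 124, 95 and 77 reads, or 4.20, 3.49 and 3.69 CPM. The AZD7762 libraries held 202, 357 and 218 reads, or 8.03, 17.0 and 10.2 CPM. The lowest treated value was still 1.91 times the highest control value, but the treated libraries differed among themselves far more than those of the other two members, with the second replicate well above the first and the third. The means were 3.79 ± 0.363 and 11.7 ± 4.66 CPM (SD, n = 3 each), a ratio of 3.09, and the fitted log2 fold change was 1.62 ± 0.233 (SE).

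**Figure D1:**
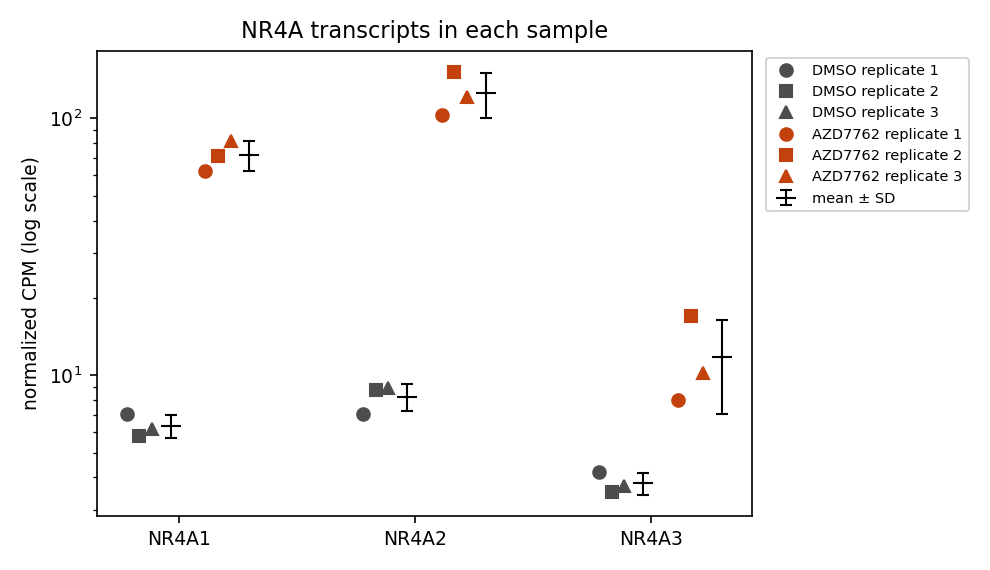
Normalized CPM of NR4A1, NR4A2 and NR4A3 on a log10 axis in the 3 DMSO and 3 AZD7762 libraries, with a symbol for each library and the group mean ± SD (n = 3) beside it. The 2 groups do not overlap for any of the 3 genes, and NR4A3, at 8.03 to 17.0 CPM with AZD7762, stays well below NR4A1 and NR4A2.

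For all 3 genes every AZD7762 library lay above every DMSO library, a pattern shown by 6.79% of the 17649 genes tested. Since the genes were picked on this contrast, nothing is read from that count. Ordered by fitted log2 fold change from the top, NR4A2 was 5th, NR4A1 6th and NR4A3 21st of all genes tested, where the median gene had a log2 fold change of 0.0076. Leaving out the first DMSO replicate gave log2 fold changes of 3.58 for NR4A1, 3.82 for NR4A2 and 1.70 for NR4A3. Leaving out the second AZD7762 replicate lowered that of NR4A3 to 1.25.

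The members did not share 1 order of libraries. Within the AZD7762 group the first replicate was the lowest for all 3 genes, at -0.19, -0.27 and -0.48 on the log2 scale relative to the group mean for NR4A1, NR4A2 and NR4A3. The highest library was the second replicate for NR4A2 and NR4A3, at 0.29 and 0.60 above the mean, and the third replicate for NR4A1, at 0.19 above it. Within the DMSO group the first replicate was the highest for NR4A1 and NR4A3, at 0.15 above the mean for each, and the lowest for NR4A2. For the treated NR4A3 values the coefficient of variation was 39.7%, of which counting alone would give 6.21%, and for NR4A1 and NR4A2 it was 13.2% and 19.7%, with 2.49% and 1.89% from counting. In DMSO the coefficients were 9.94%, 12.3% and 9.57%, and counting alone would give 7.78%, 6.88% and 10.1%.

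Summed over the 3 genes, NR4A transcripts made up 18.3, 18.1 and 18.8 CPM in the DMSO libraries and 173, 240 and 213 CPM in the AZD7762 libraries. The sum was nearly level across the controls, at 18.4 ± 0.369 CPM, and spread more widely across the treated libraries, at 209 ± 33.8 CPM (SD, n = 3 each), a ratio of 11.4. Of the 191 CPM by which the means differed, NR4A2 supplied 61.4%, NR4A1 34.4% and NR4A3 4.17%.

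Levels of different genes were compared as CPM per kilobase of annotated exon, so that a long transcript does not count for more. On this scale NR4A2 was the most abundant member in both groups, at 2.01 ± 0.248 with DMSO and 30.5 ± 6.02 with AZD7762 (SD, n = 3 each). NR4A1 had 0.870 ± 0.0865 and 9.86 ± 1.30, and NR4A3 had 0.601 ± 0.0575 and 1.86 ± 0.737. In every library the order was NR4A2, NR4A1, NR4A3.

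NR4A2 held 51.4%, 61.2% and 60.2% of the family's per-kilobase level in the DMSO libraries and 71.7%, 74.7% and 69.8% in the AZD7762 libraries, so that all treated values exceeded all control values. The share of NR4A3 was 19.8%, 15.9% and 16.2% with DMSO and 3.65%, 5.44% and 3.82% with AZD7762, again without overlap but in the other direction. NR4A1 kept a similar place, with 25.1 ± 3.24% and 23.6 ± 3.36% (SD, n = 3 each). Relative to NR4A3, the mean ratio of NR4A2 went from 3.38 in DMSO to 17.2 in AZD7762 and that of NR4A1 from 1.45 to 5.77. These shares rest on the exon lengths used: with the longest transcript in place of all exons, NR4A1 held 30.2% and 28.3%, NR4A2 54.5% and 67.9%, and NR4A3 15.3% and 3.79%.

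**Figure D2:**
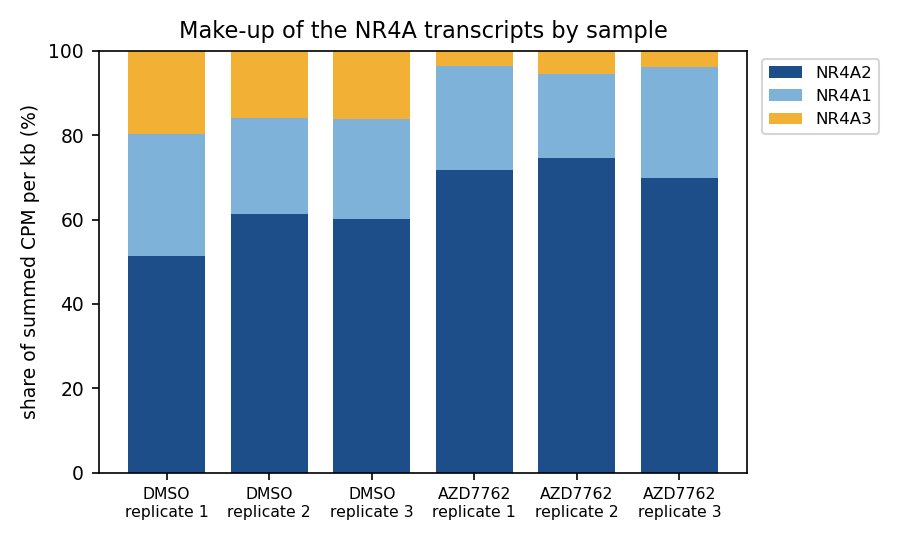
Share of the summed NR4A level, in CPM per kilobase of exon, held by each member in each of the 6 libraries, as stacked bars from 0 to 100%. NR4A3 holds 15.9 to 19.8% of the family in DMSO and 3.65 to 5.44% in AZD7762, where NR4A2 holds 69.8 to 74.7%.

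The human genome encodes 48 nuclear receptors, and 35 of them, the NR4A members included, passed the filter on low counts. By mean CPM per kilobase, NR4A2 stood 22nd of these 35 in DMSO, between NR1H2 at 2.02 and NR2F2 at 1.64, NR4A1 27th between NR6A1 at 0.923 and VDR at 0.783, and NR4A3 30th between ESRRG at 0.609 and NR1I3 at 0.281. The single libraries of NR4A2 overlapped those of NR1H2 but not NR2F2, those of NR4A1 overlapped both neighbours, and those of NR4A3 overlapped ESRRG but not NR1I3. With AZD7762, NR4A2 was 2nd, NR4A1 9th and NR4A3 25th. NR4A2 then came next to the glucocorticoid receptor NR3C1, whose 30.5 to 36.9 overlapped its 25.0 to 36.9, and to NR0B1, whose 21.5 to 25.7 overlapped it slightly. NR4A1, at 8.58 to 11.2, was not separated from RXRG at 9.85 to 10.8 or the thyroid hormone receptor THRA at 9.32 to 10.2. The NR4A members together made up 1.51%, 1.60% and 1.53% of the summed per-kilobase level of the 35 receptors in the DMSO libraries, and 14.3%, 19.0% and 16.3% in the AZD7762 libraries.

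**Figure D3:**
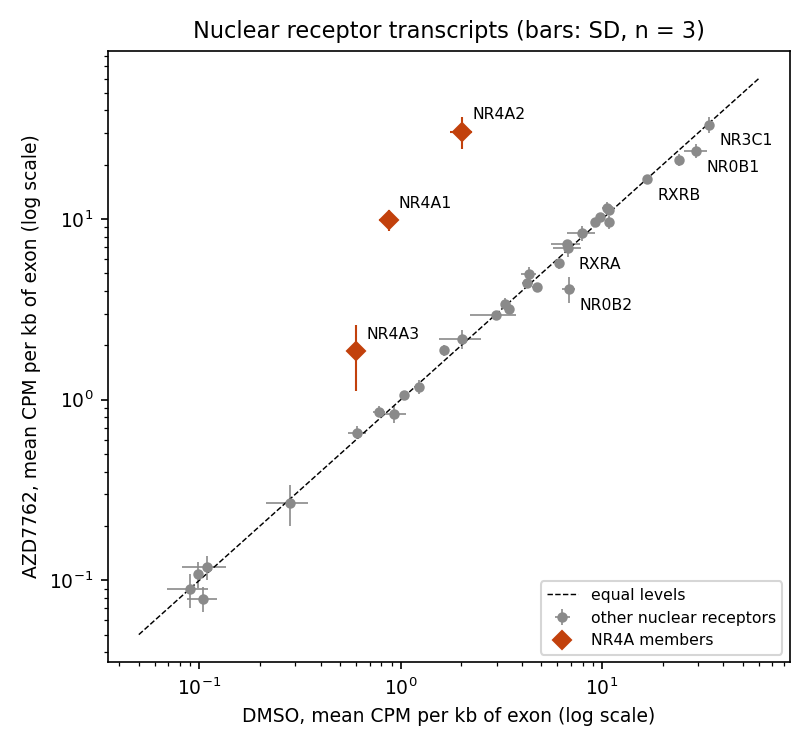
Mean CPM per kilobase of exon of 35 nuclear receptors in DMSO (horizontal, log10 axis) against AZD7762 (vertical, log10 axis), with the line of equal levels and bars of 1 SD (n = 3). The NR4A members lie above the line, with NR4A2 at 2.01 in DMSO and 30.5 in AZD7762, next to NR3C1.

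The other 45 nuclear receptors gave the background within the superfamily, and of these 32 were tested. A gene was called changed where its adjusted p in edgeR's quasi-likelihood test over all genes was under 0.05, which 125 of all genes tested met (0.708%). Of these 63 were higher (0.357%) and 62 lower (0.351%), or 59 and 90 with scaling by library total, and with the replicate number as a block 378 were called. Only NR0B2 was called among the 32, of which 18 were above and 14 below DMSO, with a median log2 fold change of 0.04 and a range of -0.73 to 0.20. NR0B2, the small heterodimer partner that lacks a DNA-binding domain and represses other receptors, stood at 7.89, 7.39 and 8.63 CPM with DMSO and 5.69, 4.23 and 4.41 CPM with AZD7762. All treated values lay below all controls, as for 8.25% of all genes tested, at a log2 fold change of -0.73 ± 0.134 (SE, n = 3 each; edgeR quasi-likelihood adjusted p = 0.0237). The call was lost without AZD7762 replicate 2, AZD7762 replicate 3 or DMSO replicate 1, where the edgeR adjusted p was 0.120, 0.0838 and 0.0841.

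NR0B1 (DAX-1), its close relative, was next by p, at 58.3 ± 7.60 CPM with DMSO and 47.7 ± 4.30 CPM with AZD7762 (SD, n = 3 each). Its log2 fold change of -0.29 did not pass (edgeR adjusted p = 0.321), but did with the replicate number as a block (edgeR adjusted p = 0.0144) and without a filter on low counts (edgeR adjusted p = 0.0264). The heme receptor NR1D2, a part of the circadian clock, did not pass either, at a log2 fold change of -0.18 (edgeR adjusted p = 0.379). The RXR partners of NR4A1 and NR4A2 were present in both groups. RXRA stood at 82.0 ± 13.2 and 83.6 ± 8.92 CPM, RXRB at 65.0 ± 1.42 and 64.6 ± 1.39 CPM and RXRG at 26.4 ± 1.25 and 27.8 ± 1.28 CPM (SD, n = 3 each, DMSO and AZD7762), with log2 fold changes of 0.03, -0.0085 and 0.07 and edgeR adjusted p of 0.950, 0.979 and 0.798.

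Of 14 coregulators that nuclear receptors recruit, 13 were tested and none was called by edgeR's quasi-likelihood test, with 0 at an unadjusted p under 0.05, beside 9.68% of all genes, and 0 calls by DESeq2. They ran from -0.36 to 0.10 in log2 fold change, 10 above and 3 below DMSO, with a median of 0.04. The coactivator NCOA1 stood at 129 ± 5.29 and 138 ± 12.6 CPM, the acetyltransferase CREBBP at 123 ± 9.54 and 131 ± 14.0 CPM, and the coactivator PPARGC1B at 0.931 ± 0.163 and 0.717 ± 0.140 CPM (SD, n = 3 each, DMSO and AZD7762), with edgeR adjusted p of 0.692, 0.782 and 0.719.

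Among 24 regulators known to act on NR4A transcription, namely CREB and CRTC proteins, MEF2 and class IIa histone deacetylases, NFAT and calcineurin, kinases and SRF, 21 were tested and 2 were called, both higher. SRF, the serum response factor that binds CArG boxes in immediate early genes, had 55.6, 41.6 and 65.1 CPM with DMSO and 91.7, 118 and 112 CPM with AZD7762. The groups did not overlap, and the log2 fold change was 0.99 ± 0.135 (SE, n = 3 each; edgeR quasi-likelihood adjusted p = 0.00233). The call held with each library left out in turn. CREM, a CREB relative with activating and repressing isoforms, had 9.58, 8.46 and 9.49 CPM with DMSO and 12.8, 14.5 and 12.1 CPM after treatment, and its log2 fold change was 0.52 ± 0.104 (SE, n = 3 each; edgeR quasi-likelihood adjusted p = 0.0424). This call was lost without either AZD7762 replicate 1 or 2 or DMSO replicate 1 or 2, at edgeR adjusted p of 0.122 to 0.233, and with scaling by library total, at 0.0607. The factors usually named first for NR4A genes were close to level: CREB1 had 87.5 ± 2.51 and 89.2 ± 7.05 CPM and MEF2A 106 ± 1.63 and 104 ± 2.19 CPM (SD, n = 3 each), with edgeR adjusted p of 0.929 and 0.899. HDAC5, a MEF2 corepressor, stood at 46.2 ± 3.83 and 53.3 ± 3.70 CPM (edgeR adjusted p = 0.392), with 24.0% of its exon bases overlapping a gene on the opposite strand. These are transcript levels, and the phosphorylation that governs several of these proteins was not measured. The median log2 fold change of the 21 was 0.03, beside 0.0076 over all genes. The 2 calls stand beside 0.708% of all genes called and 0.357% called higher. At an unadjusted edgeR p under 0.05 there were 5 of the 21, beside 9.68% of all genes. Between the groups 5 of the 21 did not overlap, beside 15.0% of all genes.

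**Figure D4:**
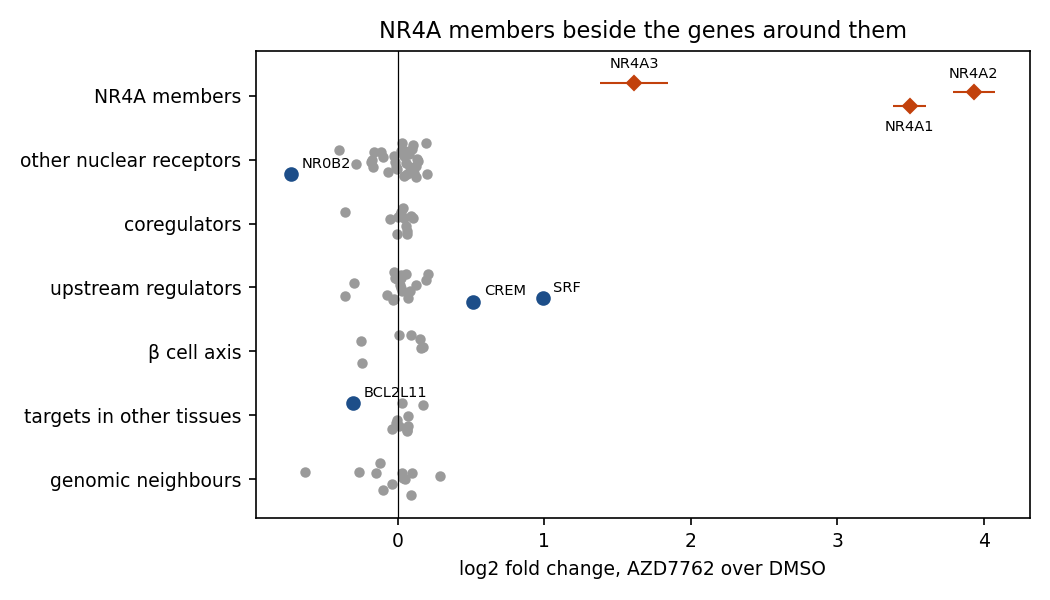
Log2 fold changes of AZD7762 over DMSO for the NR4A members (diamonds with bars of 1 SE) and for the tested genes of 6 lists, with genes called by edgeR's quasi-likelihood test in blue. The NR4A members lie at 1.62 to 3.93, while the called genes of the lists are SRF at 0.99, CREM at 0.52, BCL2L11 at -0.30 and NR0B2 at -0.73.

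A list of 7 β cell and cell cycle genes around NR4A1 and NR4A3 was compared next, and none was called by edgeR's quasi-likelihood test, with 0 calls by DESeq2. At an unadjusted p under 0.05 there were 4 of the 7, beside 9.68% of all genes, and 4 did not overlap between the groups (NKX6-1, PDX1 and UBE2C above, CDK5R1 below), beside 15.0% of all genes. NKX6-1, the β cell homeodomain factor placed upstream of NR4A1 and NR4A3, had 201, 193 and 217 CPM with DMSO and 229, 223 and 229 CPM with AZD7762. Its groups did not overlap, but the log2 fold change of 0.15 did not pass (edgeR adjusted p = 0.423). E2F1 and UBE2C, cell cycle genes placed downstream of the pair, went from 166 ± 4.18 to 167 ± 12.7 CPM and from 107 ± 2.87 to 120 ± 1.99 CPM (SD, n = 3 each), at edgeR adjusted p of 0.985 and 0.293. CDK5R1, the p35 activator of CDK5, had 83.3, 79.7 and 89.0 CPM against 71.0, 71.2 and 71.0 CPM, a log2 fold change of -0.24 ± 0.0604 (SE, n = 3 each). It missed the threshold (edgeR adjusted p = 0.135) and passed it with the replicate number as a block (edgeR adjusted p = 0.0228). FOXO1, a stress-responsive factor, stood at 84.6 ± 8.22 and 71.2 ± 7.92 CPM (edgeR adjusted p = 0.364), and INS at 1260 ± 351 and 1410 ± 250 CPM (SD, n = 3 each; edgeR adjusted p = 0.805). Of the INS exon bases 37.5%, and of the FOXO1 exon bases 22.7%, are shared with other annotated genes.

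Of 28 genes known as NR4A targets in dopamine neurons, adrenal, liver, muscle, fat and lymphocytes, 27 were matched, 22 had a count and 11 could be tested. The adrenal enzymes CYP11B2, CYP17A1, CYP21A2 and HSD3B2 and the liver enzyme PCK1 had 0 counts in all 6 libraries. The dopamine neuron target TH had 10 reads in all, and SLC6A3 had 33. Of the 11 tested, 7 were above and 4 below DMSO with a median log2 fold change of 0.03. Of these 11, 1 was called, beside 0.708% of all genes. BCL2L11 (BIM), an apoptosis inducer of the BCL2 family, was at 92.0, 88.9 and 92.7 CPM with DMSO and 70.1, 77.7 and 73.8 CPM with AZD7762. Its log2 fold change was -0.30 ± 0.0603 (SE, n = 3 each; edgeR quasi-likelihood adjusted p = 0.0391), but no leave-one-out fit called it, with edgeR adjusted p between 0.0516 and 0.211, and 10.8% of its exon bases overlap a gene on the opposite strand. The vesicular amine transporter SLC18A2 stood at 6.76 ± 0.793 and 7.60 ± 0.657 CPM and the receptor tyrosine kinase RET at 94.8 ± 1.88 and 99.2 ± 4.40 CPM (SD, n = 3 each), with edgeR adjusted p of 0.698 and 0.776, and 56.4% of the SLC18A2 exon bases overlap a gene on the opposite strand.

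No gene near the NR4A loci was called. Of 46 annotated identifiers within 250 kb of a member, 12 were tested, 6 above and 6 below DMSO with a median log2 fold change of -0.0019. EdgeR's quasi-likelihood test and DESeq2 each gave 0 calls. At an unadjusted edgeR p under 0.05 there were 2 of the 12, beside 9.68% of all genes. The largest difference was that of FIGNL2 near NR4A1, at 1.49 ± 0.179 and 0.953 ± 0.122 CPM (SD, n = 3 each; edgeR adjusted p = 0.347), 45.0% of whose exon bases overlap a gene on the opposite strand. The nearest tested genes of NR4A1, TAMALIN at 6.94 kb and ATG101 at 9.74 kb, had log2 fold changes of -0.26 and 0.09 (edgeR adjusted p = 0.390 and 0.856). Those of NR4A2 were LINC01876 at 69.5 kb and GPD2 at 92.9 kb, with -0.15 and -0.04 (edgeR adjusted p = 0.768 and 0.893). On either side of NR4A3 the nearest tested genes were STX17 at 39.8 kb and SEC61B at 591 kb, with 0.03 and 0.07 (edgeR adjusted p = 0.912 and 0.821). STX17-DT, a longer gene on the opposite strand whose span contains NR4A3 without sharing exon bases with it, had a log2 fold change of 0.29 (edgeR adjusted p = 0.623).

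Genes whose RefSeq promoter window holds the NR4A monomer site were counted as a group. Of 138 such genes tested, 68 were above and 70 below DMSO, with a median log2 fold change of -0.0011. None was called by edgeR's quasi-likelihood test or by DESeq2. At an unadjusted edgeR p under 0.05 there were 7 of the 138, beside 9.68% of all genes. Among 11911 genes tested whose windows lack the site, 95 were called (0.798%) and the median was 0.01. With the replicate number as a block 2 of the 138 were called, ARHGDIB and IQCN, at edgeR adjusted p of 0.0445 and 0.0458. The 3 genes of smallest p were ARHGDIB at a log2 fold change of 0.67, LHPP at 0.26 and the stress-induced factor ATF3 at -0.42, with edgeR adjusted p of 0.0658, 0.222 and 0.222.

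Of 448 tested genes whose window holds the full CRE, 8 were called (1.79%), 4 higher and 4 lower, beside 87 of 11601 (0.750%) among genes without it. The 4 higher were the MAP kinase phosphatase DUSP1 (log2 fold change 1.69), LRRTM2 (0.89), CREM (0.52) and CHMP1B (0.44), with edgeR quasi-likelihood adjusted p of 9.58e-06, 0.00271, 0.0424 and 0.00175. The 4 lower were the small MAF factor MAFF (-1.35), ZNF547 (-1.01), the receptor GPR3 (-0.89) and the phosphatase DUSP8 (-0.56), with edgeR adjusted p of 0.000264, 0.0260, 0.0361 and 0.0221. The count was 21 with the replicate number as a block, and 4 to 10 with 1 library left out, the lowest without AZD7762 replicate 1 or without DMSO replicate 1. The NR4A windows shown above hold no full CRE and are not among these genes.

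Which transcripts followed the NR4A genes most closely was measured by the Euclidean distance between 2 genes' 6 log2 CPM values, each taken relative to its own DMSO mean, so that 0 would be the same profile. NR4A1 and NR4A2 were 0.929 apart, while NR4A3 was 3.44 from NR4A1 and 4.12 from NR4A2. Nearest to NR4A1 among other tested genes were the long noncoding RNA LINC01679 at 0.968, the AP-1 subunit FOS at 1.06, ENSG00000254510 at 1.50, the antiproliferative gene BTG2 at 1.75 and the potassium channel subunit KCNE4 at 1.99. In DMSO LINC01679 had 0.144 to 0.271 CPM and ENSG00000254510 0.0368 to 0.305 CPM, from 124 and 102 reads over the 6 libraries. Some of these values lie at or near the level of 3 counts, so both places rest on few control reads. FOS had 12.7, 11.1 and 9.20 CPM with DMSO and 89.6, 81.2 and 82.1 CPM with AZD7762, so that, unlike NR4A1, its first treated replicate was the highest.

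Nearest to NR4A2 were KCNE4 at 1.21, the kinase SIK1 at 1.50, LINC01679 at 1.67, ENSG00000275993 at 1.68 and FOS at 1.84. SIK1, at 1.08 ± 0.221 and 29.4 ± 7.21 CPM (SD, n = 3 each), shares 91.0% of its exon bases with ENSG00000275993 on the same strand, so the reads of these 2 identifiers cannot be told apart and they count as 1 neighbour.

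NR4A3 had a different set: FHL2 at 0.377, the splicing kinase CLK1 at 0.488, the AP-1 subunit FOSL2 at 0.636, DIP2C-AS1 at 0.682 and ENSG00000255931 at 0.685. None of these 5 was among the nearest 5 of NR4A1 or NR4A2. The distance depends on the size of the rise, which was smaller for NR4A3, so nothing is read from this. FHL2, a LIM-domain cofactor, had 0.609, 0.478 and 0.383 CPM with DMSO and 1.03, 2.19 and 1.22 CPM with AZD7762, from 137 reads over the 6 libraries. CLK1 had 73.1, 119 and 77.5 CPM and FOSL2 7.16, 12.2 and 9.15 CPM with AZD7762, from means of 30.9 and 2.56 CPM with DMSO. All 3 had their highest value in the second AZD7762 replicate, as NR4A3 did, while DIP2C-AS1 and ENSG00000255931 had theirs in the third. The second replicate was also the highest for NR4A2 and for every gene named above as near NR4A1 or NR4A2, except FOS. These distances are descriptions over 6 libraries that are dominated by the treatment difference, and they were used to pick the genes. Of the 12 genes named here for likeness, 8 have a window in the RefSeq table and all 8 hold a CRE core in at least 1 window, beside 28.4% of all symbols in that table. SIK1 had 3 cores, FOSL2 and DIP2C-AS1 had 2, and FHL2 had a core in 1 of its 4 windows. All 8 except DIP2C-AS1 also hold a GC box, while NR4A1 itself holds no core in its windows. The genes were picked on these same libraries, and the share covers all symbols rather than the tested genes, so nothing is read from this count.

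**Figure D5:**
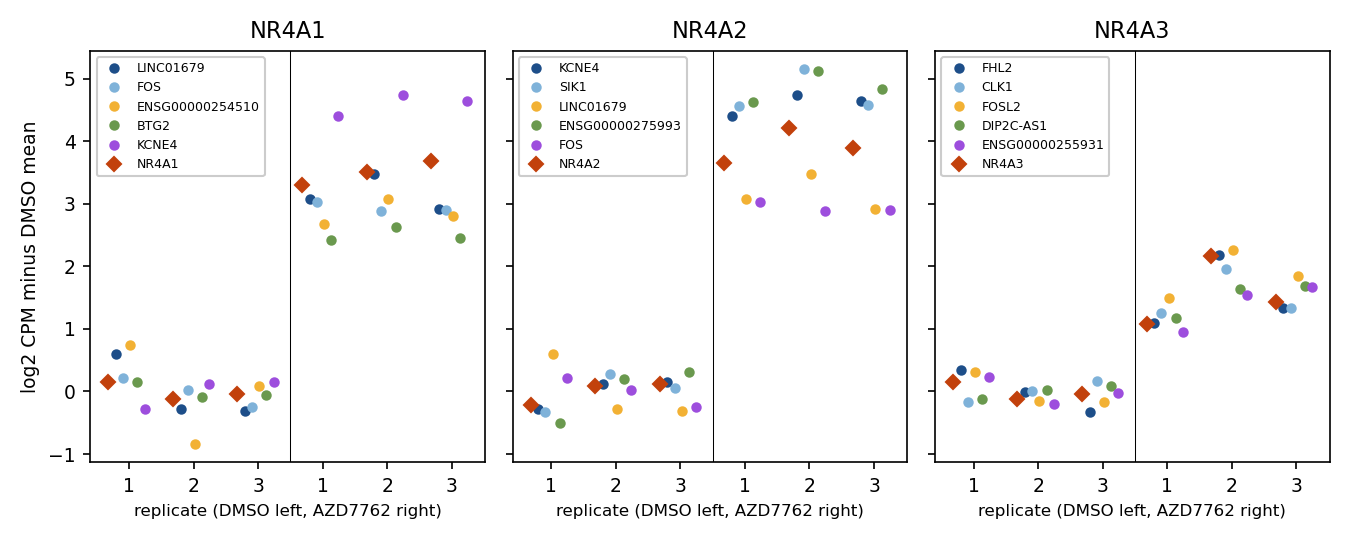
Log2 CPM minus the DMSO mean in each of the 6 libraries for NR4A1, NR4A2 and NR4A3 (diamonds) and the 5 tested genes nearest to each (circles), with DMSO left and AZD7762 right of the vertical line. NR4A2, NR4A3 and all the circled genes except FOS, DIP2C-AS1 and ENSG00000255931 are highest in the second AZD7762 replicate. NR4A1 and NR4A2 lie above NR4A3 in all treated libraries.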

How the data were processed

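Gene expression was measured by RNA-seq of polyadenylated RNA in 6 samples, 3 with DMSO and 3 with AZD7762, grouped by their titles. The deposited values are raw counts per Ensembl gene: the authors checked reads with FastQC 0.10.1, trimmed them with cutadapt 1.18, aligned them to GRCh37 and counted them with HTSeq-count, and the aligner is not given in the sources used here. Libraries were made with an unstranded or a stranded kit, without a label for each. The members and gene lists were chosen with earlier results of these data known.

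Symbols, positions and exon lengths came from a GRCh37 annotation of another release than the one counted on, which matched 58646 of 60671 identifiers. In R 4.3.3, genes passing edgeR 4.0.16's filterByExpr (17649, holding 99.9% of counts) were scaled with TMM and compared by its quasi-likelihood test, two-sided, with Benjamini-Hochberg adjustment over these genes and a threshold of 0.05. Standard errors were obtained from the log2 fold change and its F statistic, and CPM use the TMM-scaled totals. The depth of 20486391 to 29402440 counts per library and a biological coefficient of variation of 7.15% set the precision. No 2 libraries of a group agreed within sampling noise, with a chi-square of 4.84 to 9.59 per gene. Promoter windows of 250 bases before to 50 after each start came from a table of RefSeq starts (GRCh38.p14), and 2 of the 3 members and 12049 tested symbols matched an entry of that table.

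Named were the members, called genes of each list, then those of smallest p up to 3 a list, RXRA, RXRB, NKX6-1, CDK5R1, E2F1 and INS, the nearest tested gene on each side of a member, and the 5 genes nearest in profile. Other genes named were chosen after their values were seen. For these distances values under 0.102 CPM were set to it.

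Groups share replicate numbers. Deviations from the group means of same-numbered samples correlated over 17649 genes with r = 0.106, 0.214 and 0.325 for numbers 1, 2 and 3. A fit with the replicate number as a block was therefore run as an alternative. The main fit held treatment alone, so its p-values take no account of a pairing. Such a pairing would come from the data and not from the labels, and DMSO 1 correlated more with AZD7762 2 (r = 0.283) than with AZD7762 1. That r also exceeded the one between the samples numbered 2.

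Alternatives were DESeq2 1.42.0, the likelihood ratio test, 2 other scalings, 2 other filters, the replicate block, each library left out, a 100 kb neighbour window and longest-transcript lengths.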

Additional observations from a re-analysis of the deposited data

How the results depend on the processing

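The log2 fold changes of NR4A1, NR4A2 and NR4A3 kept their direction in all alternatives run and ranged with 1 library left out from 3.40 to 3.58, 3.77 to 4.05 and 1.25 to 1.83, the lowest for NR4A3 without AZD7762 replicate 2. With the replicate block they were 3.48, 3.92 and 1.58. The count of called genes was 125, and 267 with the likelihood ratio test, 330 without a filter on low counts, 378 with the replicate block and 77 to 168 with 1 library left out, the lowest without AZD7762 replicate 1. DESeq2 called 175. All 125 were among the calls of the likelihood ratio, unfiltered and blocked fits. The cause was not tested.

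Of the other nuclear receptors 1 was called, and 2 without a filter or with the block, and 0 to 1 with 1 library left out. Of the upstream regulators 2 were called, and 1 under a minimum of 10 counts per library or scaling by library total, and 1 to 2 with 1 library left out. Of the β cell genes 0 were called, and 1 with the block and 0 to 0 with 1 library left out. Of the targets in other tissues 1 was called, and 0 in every leave-one-out fit. Promoters with the NBRE gave 0, and 2 with the block. Promoters with the CRE gave 8, 21 with the block and 4 to 10 with 1 library left out, 4 without AZD7762 replicate 1 or DMSO replicate 1 and 5 without replicate 2 of either group. Coregulators and neighbours, also within 100 kb, gave 0 throughout. The replicate block changed no other count of calls among the lists named here and was not examined for single marker genes or the genes nearest in profile.

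With 3 libraries a group and CPM near 4 to 8 in DMSO, counting error is a large part of the spread of NR4A1 and NR4A3 levels there. For NR4A2 it is a smaller part, with 6.88% from counting beside a coefficient of variation of 12.3%. Reads of NR4A1 and its antisense partner cannot be separated without the strand setting.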

Other observations

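Several receptors and regulators often named beside the NR4A group were at or near 0 in these cells. The fat receptor PPARG had 0 reads in all 6 libraries, NR5A1, the steroidogenic factor that binds a site like the NBRE, had 3 and the thyroid hormone receptor THRB had 7. Of the regulators of NR4A transcription, MEF2C had 1 read, NFATC1 had 4 and NFATC2 had 6 over the 6 libraries. The relative MEF2A stood at 106 ± 1.63 CPM with DMSO and 104 ± 2.19 CPM with AZD7762 (SD, n = 3 each). MEF2D stood at 47.4 ± 4.40 and 54.3 ± 3.99 CPM (SD, n = 3 each). Its log2 fold change of 0.20 did not pass (edgeR adjusted p = 0.460). The NR4A targets IRF4 of lymphocytes and STAR of adrenal cells had 11 and 17 reads over the 6 libraries, without separation between the groups.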
